A study of Bos taurus and Sus scrofa with 10 samples.

Results

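The pig blastocyst library was compared with the pig morula library across all gene rows with a level of 1 RPM or more in either of them, where RPM counts the reads of a row for every 1000000 reads of its library. That left 12567 of the 21867 rows of the pig table, out of 44712 rows in the pig and cow tables together. The morula group was pig embryos (Sus scrofa) at the morula stage, and the blastocyst group was pig embryos at the blastocyst stage, with 1 library each and no treatment or genotype named for either. The study, whose title concerns DNA methylation and imprinted genes before implantation, sequenced total RNA of the oocyte and 4 embryo stages of pig and cow, with 10 libraries in all. Breed, embryo age, the way the embryos were produced, their sex and the number of embryos pooled for a library are not given in the sources used here. In both groups the RNA was amplified as cDNA by a method meant for small inputs, and then by PCR. Because each group had 1 library, no difference below has a replicate check and none was tested. No molecular identifiers are named in the labels, so reads may be copies of one molecule, and the 95% Wilson intervals given here cover counting error only. In RNA of embryos, fewer cells of a type and less RNA per cell cannot be told apart.

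At compaction the cells of the embryo flatten against each other, and cells at the outside take up apical and basal faces. The outer cells become trophectoderm, an epithelium that seals itself with tight junctions, pumps sodium and water inwards and so fills the blastocyst cavity, while the inner cells form the inner cell mass, from which epiblast and hypoblast separate. In the pig the trophectoderm does not invade the uterus at once but grows and elongates before it attaches, and the conceptus signals to the mother through steroids, cytokines and prostaglandins. Keratins, GATA factors, pumps and junction proteins are therefore known for the trophectoderm, SOX2 and NANOG for the epiblast, and GATA4, GATA6, SOX17 and laminins for the hypoblast.

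The morula column rested on 3002751 reads and the blastocyst column on 3729816, so that 1 read was worth 0.333 and 0.268 RPM, and the 3 reads that a count of 0 allows came to 0.999 and 0.804 RPM. Gene rows held 88.7% of the morula reads and 92.7% of the blastocyst reads. Changes are differences of log2(RPM + 1), blastocyst minus morula, a scale that understates the change of rows with few reads. A row was called higher or lower at a change of 2 or more in size, which is 4-fold on that scale, and "rose" and "fell" are used of called rows only. RPM is not divided by gene length, so levels are compared between libraries and not between genes.

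Of the 12567 rows, 1739 (13.8%) were higher and 1732 (13.8%) were lower at the blastocyst, and the median change was -0.11. The called rows were thus split evenly, with 50.1% of the 3471 higher. There were 306 rows higher by 4 or more and 231 lower by 4 or more, while 5049 changed by less than 1. Both libraries had 1 RPM or more for 9421 rows, the morula library alone for 1797 and the blastocyst library alone for 1349. Among the rows called higher 327 had 0 morula reads, and among those called lower 581 had 0 blastocyst reads. Rows without a gene symbol made up 2024 of the compared rows, of which 278 were higher and 303 lower. Because the counting rule for overlapping genes is not given in the sources used here, reads of the 4385 compared rows whose spans overlap another row, 1139 of them called, may belong in part to a neighbour. Restricted to rows without such an overlap, the counts were 1081 higher and 1251 lower, and the median change was -0.24.

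**Figure D1:**
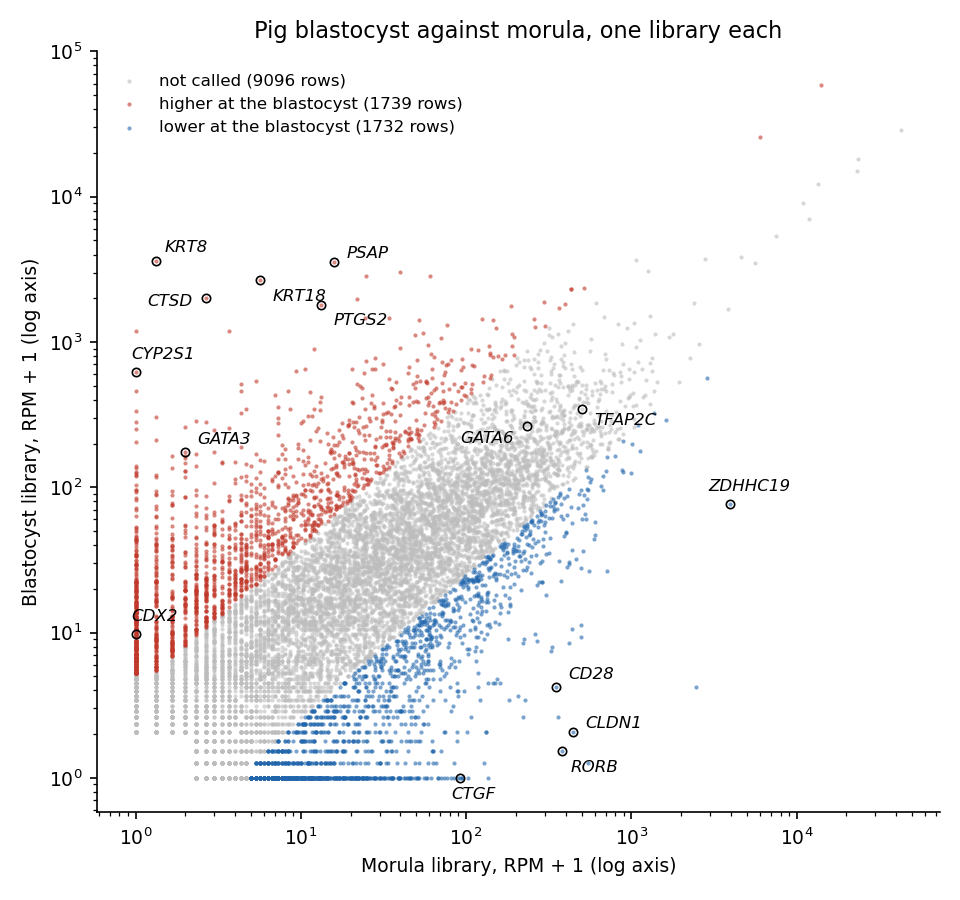
Each point is 1 of the 12567 compared gene rows, with its level in the pig morula library (x axis) and in the pig blastocyst library (y axis), both as RPM + 1 on log axes. Red points are the 1739 rows called higher, blue points the 1732 called lower, and grey points the 9096 not called. KRT8 and CTSD stand at the upper left, and RORB and CLDN1 at the lower right.

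In reads, the rows called higher grew from 4.23% of the morula library to 30.4% of the blastocyst library. The rows called lower went from 12.99% to 1.66%. Their typical levels crossed, since the median of the higher rows went from 2.66 to 34.6 RPM, and that of the lower rows from 22.1 to 1.07 RPM. These figures describe rows chosen by the same values.

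The pig libraries before the morula, which the choice of rows did not use, place these rows in the course from the oocyte. The 4 earlier libraries counted below include the morula, which the choice did use. Of the 1739 rows called higher, 1631 (93.8%) had their highest level of all 5 pig libraries at the blastocyst. The share among all compared rows was 36.5%, although calling a row higher at the blastocyst favours that place. Only 119 had no read in any of the 4 earlier libraries. In all 4, 328 (18.9%) stayed under 1 RPM, against 5.77% of all compared rows, which the call favours through the morula value. In the oocyte, 2-4 cell and 8-16 cell libraries alone, 450 (25.9%) stayed under 1 RPM, against 12.4% of all compared rows. At the other end, 999 of the rows called higher (57.4%) had 1 RPM or more in the oocyte library, against 73.8% of all compared rows. The call favours a low morula level. Against 13.7% of all compared rows, 297 (17.1%) had an oocyte level more than 4 times that of the morula. ASNS, the asparagine synthetase, was such a row, at 337 RPM in the oocyte library, 136 at the 2-4 cell stage, 72.3 at the 8-16 cell stage, 3.996 in the morula and 139.7 in the blastocyst. It dipped at the morula and came back to below its oocyte level.

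The rows called lower had varied courses. Their highest level was in the morula library for 885 of the 1732 (51.1%) and in the oocyte library for 362 (20.9%). It was in the 8-16 cell library for 269 (15.5%) and in the 2-4 cell library for 216 (12.5%). In the same order, the shares among all compared rows were 27.4%, 17.1%, 10.6% and 8.49%. Calling a row lower than the morula excludes a blastocyst peak and favours a morula one. ZDHHC19, a palmitoyltransferase, was a morula row of this kind, at 25.5 RPM in the oocyte library, 23.4 at the 2-4 cell stage, 82.1 at the 8-16 cell stage, 3938 in the morula and 75.9 in the blastocyst. It had stood among the 5 rows outside the mitochondrial chromosome with the most morula reads. CD28, a receptor best known from T cells, was instead high from the oocyte on, with 1562, 2217 and 2429.8 RPM in the 3 earliest libraries, 349 in the morula and 3.22 in the blastocyst. Its fall was 109-fold, and 1341 of the 1732 lower rows (77.4%) likewise had 1 RPM or more in the oocyte library, where the share among all compared rows was 73.8%.

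The 15 symbols with the largest rises included keratins and a cathepsin. KRT8, a keratin of simple epithelia (chromosome 5, 18170354 to 18180215, in the coordinates of the deposited table), had 0 reads in the 3 earliest libraries, 0.333 RPM in the morula (1 read) and 3629 RPM in the blastocyst (3569 to 3691). KRT18, its partner in the keratin filament (chromosome 5, 18217575 to 18222833), went from 4.66 to 2681 RPM, 575-fold higher. CTSD, the lysosomal protease cathepsin D (chromosome 2, 1184804 to 1198471), went from 1.67 to 2006 RPM, a change of 9.56. All 3 were at under 1 RPM in the oocyte library, and at under 5 RPM in the morula library.

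Several large rises started from no morula read. CYP2S1, a cytochrome P450 monooxygenase, reached 622 RPM from 0 reads, at least 623-fold higher. UPP1, the uridine phosphorylase of pyrimidine salvage, reached 459 RPM, PRAP1, a secreted acidic protein, 336 RPM, and RHOV, a small GTPase, 282 RPM, each from 0 reads. PLA2G10, a secreted phospholipase, reached 138 RPM in the same way. BEX4 went from 2.66 to 1192 RPM and HEBP1, a haem-binding protein, from 0.333 to 301 RPM. AMT, of the glycine cleavage system, went from 0.999 RPM (3 reads) to 259.5 RPM. AMT has a span that overlaps another row.

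RORB, an orphan nuclear receptor (chromosome 1, 227574691 to 227772698), was among the 15 symbols with the largest falls. It had been at 366, 453 and 671 RPM in the 3 earliest libraries and went from 382 RPM in the morula (361 to 405) to 0.536 RPM in the blastocyst, which is 2 reads. CLDN1, a claudin of tight junctions (chromosome 13, 127710737 to 127730765), went from 441 to 1.07 RPM, 411-fold lower. CTGF, a secreted protein and a known target of YAP, went from 90.6 RPM to 0 reads, at least 113-fold lower. The smallest of these 3, CTGF, had 272 morula reads. Ranking by the size of the fall favours rows with many morula reads, so this does not describe the losses in general.

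Among the other large falls, SPRY4, an inhibitor of ERK signalling, went from 102 RPM to 0 reads and USP29, an imprinted ubiquitin protease, from 87.9 RPM to 0 reads. EFHC2 and EFHD1, both with calcium-binding EF-hands, went from 93.6 and 83.6 RPM to 0 reads. CHSY3, a chondroitin synthase, went from 75.6 RPM to 0 reads, HS3ST5, which adds sulphate to heparan chains, from 131 to 1.07 RPM, and GALNT13, which starts mucin-type sugar chains, from 220.5 to 1.61 RPM. SEMA3D, a secreted guidance protein, went from 69.9 RPM to 0 reads, and C21orf91 from 228 to 2.41 RPM. SPRY4, EFHC2, EFHD1, HS3ST5 and GALNT13 have spans that overlap another row.

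Of 24 compared transcription factors of the trophectoderm, 11 rose and 2 fell, with a median change of 1.22. GATA3 (chromosome 10, 63367663 to 63390560), which drives trophectoderm genes, had 0 reads in the oocyte library and 1.69 and 3.47 RPM at the 2-4 and 8-16 cell stages, and went from 0.999 RPM in the morula (3 reads, 0.3398 to 2.94) to 173 RPM in the blastocyst (159.8 to 187), a ratio of 173-fold with a counting interval of 58.9 to 840.2. GATA2, its relative, went from 0 reads to 134 RPM, at least 134-fold higher, having had 0.948 RPM at the 8-16 cell stage. TFAP2A, an AP-2 factor, had 5.92, 5.07 and 5.05 RPM in the 3 earliest libraries and went from 0.333 RPM in the morula (1 read) to 212 RPM. CDX2, the factor that holds the trophectoderm fate, had 0 reads in all 4 earlier libraries and 8.85 RPM (6.3003 to 12.4) in the blastocyst, 33 reads. These 4 rows had 0 to 3 reads in the morula library, and of them CDX2 had no earlier read at all. GATA2 has a span that overlaps another row.

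Other trophectoderm factors had more morula reads. TFAP2C, an AP-2 factor, went from 19.8 RPM in the oocyte through 30.2 and 183 to 502 in the morula and 346 in the blastocyst. TEAD4, the DNA-binding partner of YAP, was at 46.96 and 38.9 RPM, with overlapping intervals (39.8 to 55.4 and 33.04 to 45.7), and ELF5 at 12.99 and 12.3 RPM. KLF5 rose from 126 to 529 RPM, 4.202-fold, after 23.4 RPM in the oocyte library. Among the falls was PPARG, a nuclear receptor of lipid genes, from 10.7 RPM to 0 reads. EOMES had 1 read in the morula and none in the blastocyst and was not compared.

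Factors of the epiblast went the other way. Of 18 compared members 7 fell and 2 rose, with a median of -1.39, and 13 of the 26 rows found had 0 reads in the blastocyst library, against 8 in the morula. SOX2 (chromosome 13, 119663183 to 119669539) went from 1.18, 1.93 and 2.53 RPM to 10.3 RPM in the morula (7.27 to 14.7) and to 0 reads in the blastocyst, at least 12.8-fold lower. NANOG had 2.66 RPM in the morula (8 reads) and 0 in the blastocyst, a change of -1.56 that was not called. PRDM14, a repressor of differentiation, and ETV5, an ETS factor, each went from 15.3 RPM to 0 reads, and NR5A2, a nuclear receptor, from 117 to 4.29 RPM. The 2 rises were TDGF1, a co-receptor for NODAL, from 0.333 RPM (1 read) to 117 RPM, and DPPA5, an RNA-binding protein of pluripotent cells, from 0.666 to 16.6 RPM.

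ESRRB, an orphan receptor of naive pluripotent cells, kept many reads, at 321 RPM in the morula and 158 RPM in the blastocyst, a change of -1.02. KLF17 fell from 70.6 to 12.3 RPM. POU5F1, KLF4 and FGF4 were not analysed here. The blastocyst library thus held trophectoderm markers that fit its label (KRT8, GATA3 and CDX2). The epiblast markers SOX2, NANOG, PRDM14 and GDF3 were at 0 reads in it, which allows up to 0.804 RPM each. Of the 26 epiblast rows found, 13 had 0 blastocyst reads, and others kept reads beside ESRRB. TBX3 was at 135 RPM, SALL4 at 80.2 RPM and ZFP42 at 32.7 RPM in the blastocyst. How much of the inner cell mass the library held was not tested.

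Hypoblast genes went both ways. Of 22 compared members 7 rose and 5 fell, with a median of 1.15, or -0.07 with no minimum level, where members without reads enter. Among the factors, GATA6 was already at 234 RPM in the morula and stood at 261 RPM in the blastocyst, GATA4 went from 12.3 to 4.02 RPM without being called, and SOX17 had 0 reads in all 5 libraries. PDGFRA, a growth factor receptor of the hypoblast, was at 1.33 and 3.75 RPM. The rises were in structural, secreted and endocytic genes and in HNF4A, a nuclear receptor that went from 0.666 to 6.703 RPM. APOA2, an apolipoprotein, rose from 0 reads to 119.8 RPM, LAMA1, a laminin chain, from 0.333 to 93.6 RPM, and DAB2, an endocytic adaptor, from 50.95 to 1413 RPM. HHEX, a homeobox factor, and RSPO3, a WNT agonist, fell from 13.3 and 16.98 RPM to 0 reads, and NID1 and NID2, nidogens of the basement membrane, from 5.99 and 5.99 RPM to 0 reads and 0.268 RPM. CUBN, an endocytic receptor, fell from 55.9 to 11.5 RPM.

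**Figure D2:**
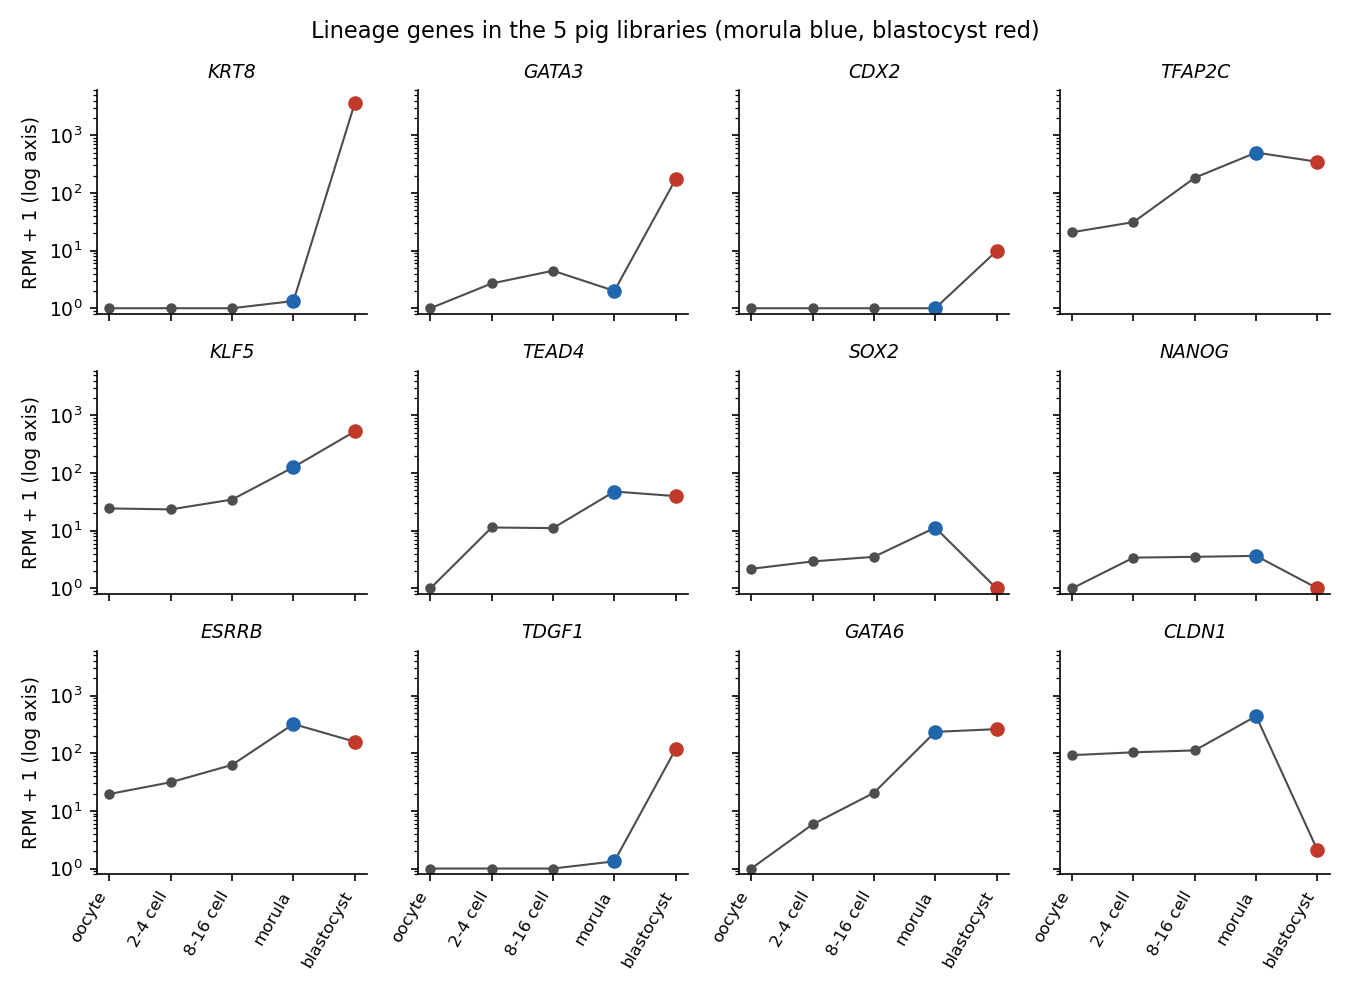
Level of 12 lineage genes (RPM + 1, log axis) in each of the 5 pig libraries, with the morula in blue and the blastocyst in red, 1 library per point. KRT8, CDX2 and TDGF1 stand near 1 on the axis up to the morula and rise in the blastocyst, GATA3 has a few reads at the 2-4 and 8-16 cell stages before its rise, whereas TFAP2C, KLF5, TEAD4 and GATA6 had risen by the morula, and SOX2 and NANOG have no blastocyst read.

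Most compared genes of keratin filaments, desmosomes and annexins rose, and none fell. Of 16 compared keratin and desmosome rows 11 rose and none fell, with a median of 2.85, and their summed level went from 643 to 9639 RPM, most of it KRT8 and KRT18. DSP, the desmosomal plaque protein desmoplakin, went from 60.3 to 823 RPM, 13.7-fold, and the desmosomal cadherin DSG3 from 0 reads to 44.5 RPM. Among S100 and annexin genes, whose proteins bind calcium and membranes, 11 of 16 rose, with a median of 3.23. ANXA1 went from 1.33 to 284 RPM, ANXA6 from 0 reads to 91.2 RPM and S100A6 from 0 reads to 39.7 RPM. The actin list had 18 of 41 higher and 1 lower, and 11 of 24 higher without overlapping rows. ACTB, cytoplasmic beta actin, was at 9.77 RPM in the oocyte library, 23.98 in the morula and 2827 in the blastocyst, and MYL6 and RHOC, a myosin light chain and a small GTPase, went from 2.66 and 1.33 to 256 and 139 RPM. CFL2, an actin-severing cofilin, was the fall, from 119 to 15.3 RPM. MYL6 and RHOC have spans that overlap another row.

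Junction genes changed in both directions. Of 33 compared rows 9 rose and 4 fell, with a median of 0.71. The claudins CLDN4 and CLDN6 rose, CLDN4 from 3.33 to 117 RPM and CLDN6 from 1.998 to 66.5 RPM, while CLDN1 fell from 441 to 1.07 RPM. OCLN, occludin, rose from 6.99 to 182 RPM and MSN, moesin, from 38.6 to 902 RPM, and TJP1, the scaffold ZO-1, went from 191 to 469.7 RPM, a change of 1.295. The losses included CDH2, N-cadherin, from 25.6 to 0.536 RPM, and CGNL1, paracingulin, from 38.6 RPM to 0 reads. CDH1 was not analysed here. Of the 20 junction rows without an overlapping span 4 rose and 3 fell. CLDN4 and OCLN have spans that overlap another row.

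Among the pumps and channels that fill the cavity, 6 of 18 compared rows rose and 4 fell. ATP1B1, the beta subunit of the sodium pump, was at 12.7 and 6.17 RPM and was not called. AQP3, a water and glycerol channel, went from 0.333 RPM (1 read) to 73.5 RPM, and SCNN1A, a subunit of the epithelial sodium channel, from 0 reads to 45.04 RPM. SLC12A2, the sodium-potassium-chloride cotransporter, fell from 95.9 to 8.58 RPM, and the carbonic anhydrases parted, CA12 rising from 0 reads to 16.1 RPM and CA2 falling from 11.99 to 0.268 RPM. AQP11 also fell, from 13.3 to 0.268 RPM. ATP1B1 and CA2 have spans that overlap another row.

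Integrins and matrix genes had 10 of 30 higher and 5 lower. ITGA5, the alpha chain of the fibronectin receptor, went from 0.666 to 76.4 RPM, and LAMA5, a laminin chain, from 0 reads to 32.7 RPM, whereas ITGB8 and SDC2, an integrin beta chain and a syndecan, went from 22.6 and 7.66 RPM to 0 reads. ITGA4 fell from 32.6 to 2.41 RPM. Integrin chains were thus called in both directions, within a list that had more rises than falls. LAMA5 and ITGA4 have spans that overlap another row.

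Conceptus secretory genes had 12 of 25 compared rows higher and 2 lower, with a median of 1.95, or -0.07 with no minimum level, and their summed level went from 532 to 4384 RPM. PTGS2, the inducible enzyme of prostaglandin synthesis (chromosome 9, 127848603 to 127859287), had 0 reads in the oocyte and 2-4 cell libraries, 0.948 RPM at the 8-16 cell stage, 12.3 in the morula and 1809 in the blastocyst, 147-fold higher than the morula. TIMP3, a protease inhibitor, went from 2.33 to 148 RPM, and LGALS1, a galectin, from 23.98 to 734 RPM. CYP19A1, the aromatase that makes oestrogen, went from 1.67 to 20.4 RPM. TFPI2, a placental protease inhibitor, fell from 10.7 RPM to 0 reads, and PEG10, a retrotransposon-derived imprinted gene of the placenta, from 51.6 to 7.78 RPM. IL1B2, the conceptus interleukin of the pig, was not analysed here. CYP19A1 has a span that overlaps another row.

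PTGS2 and CYP19A1 are also on the list of cumulus and granulosa markers, the follicle cells that surround an oocyte, whose summed level went from 403 to 2153 RPM. Of its 10 compared rows 2 rose, which were PTGS2 and CYP19A1, and 1 fell, AMHR2, the receptor for anti-Müllerian hormone, from 24.98 RPM to 0 reads. INHA, GREM1, PTX3 and CYP11A1 had 0 reads in both libraries. Of the 15 rows found, 5 had 0 reads in the morula and 8 in the blastocyst. The median change of the compared rows was -0.12. PTGS2 alone held 12.3 RPM of the summed level in the morula and 1809 RPM in the blastocyst. The summed level of blood and immune markers went from 27.6 to 673 RPM, and 2 of 6 compared rows rose: CD74, the invariant chain of class II antigen presentation, from 19.3 to 649.6 RPM, and FCER1G, an Fc receptor chain, from 0 reads to 11.8 RPM, while HBB, CD14, CD3E and TYROBP were at 0 reads in both. Of the oviduct and uterine markers 3 were compared and none was called, the summed level went from 13.99 to 20.4 RPM, and MUC1 and FOXJ1 had 0 reads in both libraries. Of the male germ cell markers 4 were compared and 3 fell, AKAP4, DDX4 and LDHC, the summed level went from 88.6 to 69.2 RPM, and PRM1 and TNP1 were at 0 in both. Only ODF2, a fibre protein shared with centrioles, was left without overlapping rows, with a change of 1.83. The part of such cells in the changes was not tested. CD74, CYP19A1, AKAP4, DDX4 and LDHC have spans that overlap another row.

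**Figure D3:**
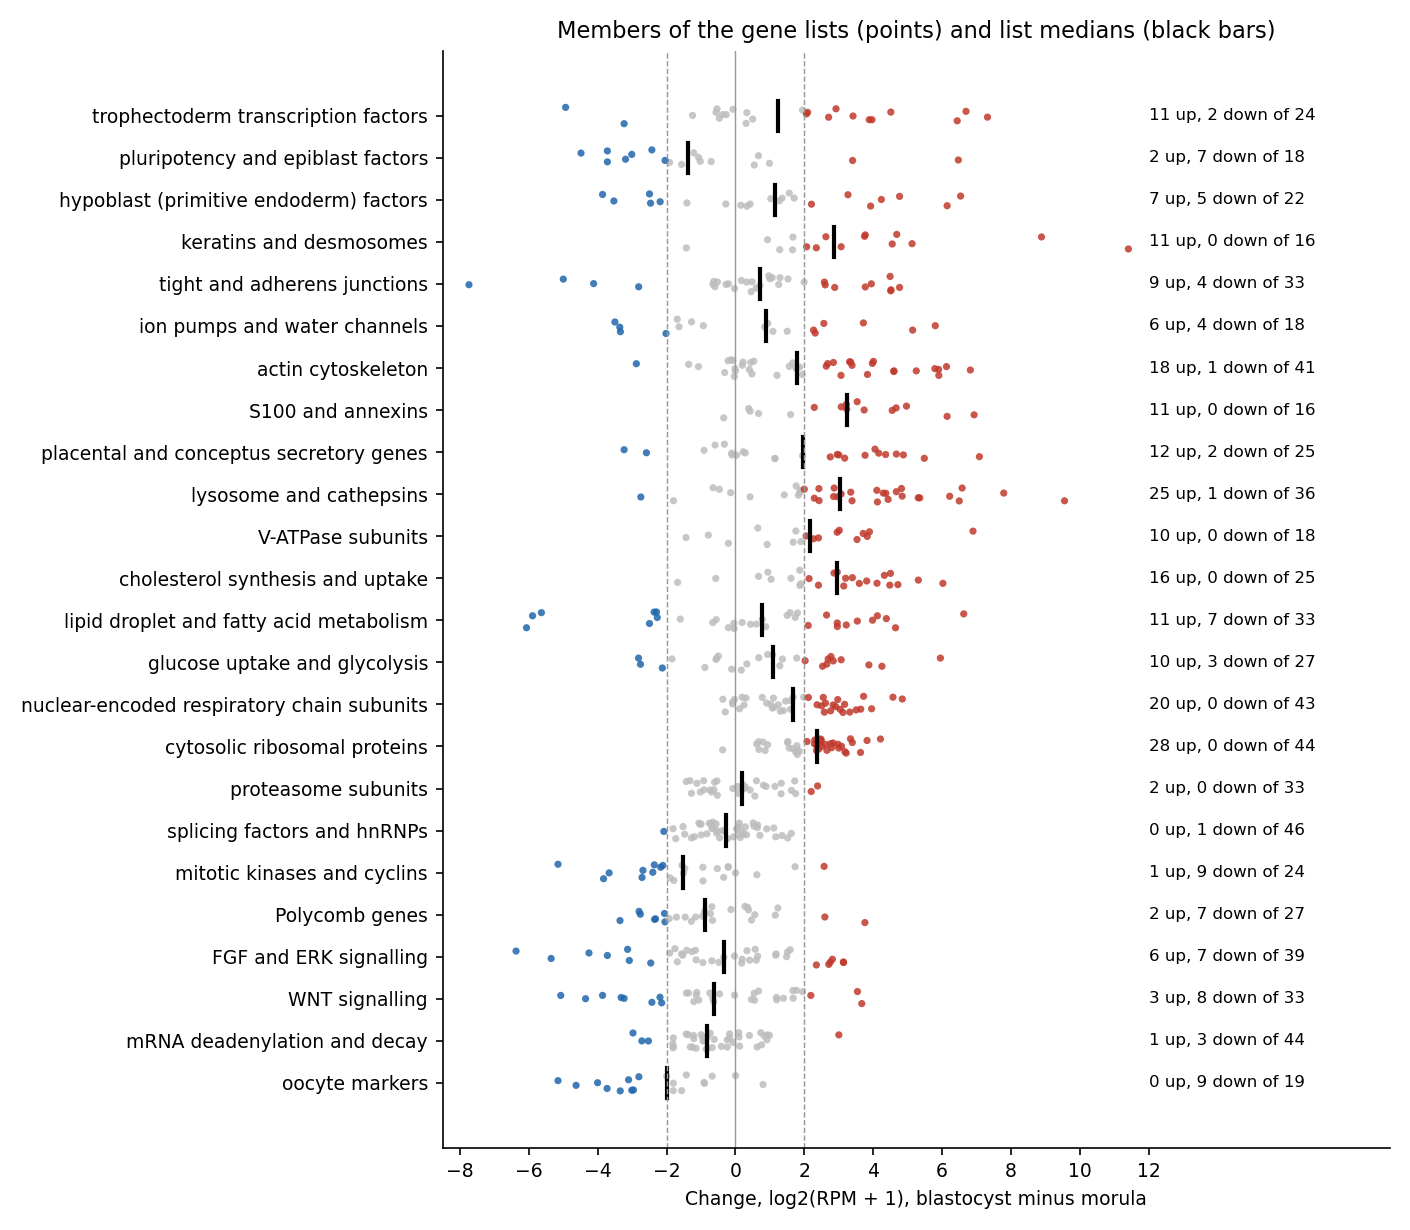
Change of each compared member of 24 gene lists (points; log2(RPM + 1), blastocyst minus morula), with the list median as a black bar and dashed lines at the call threshold of 2 in size. Red members are called higher and blue members lower, with the counts at the right. The lysosomal, cholesterol, V-ATPase, keratin, S100 and ribosomal medians lie above 2, and the oocyte marker median is the lowest of those shown.

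The lysosome was among the lists with the most members higher. Of 36 compared rows 25 rose and 1 fell, with a median of 3.02, against 13.8% of all rows higher, and the summed level went from 1584 to 13580.0000 RPM. Without the members whose spans overlap another row, 12 of 17 were higher, with a median of 3.35. PSAP, the precursor of the saposins that help degrade sphingolipids, went from 6.51 RPM in the oocyte and 14.99 in the morula (11.2 to 20.1) to 3543 in the blastocyst (3483 to 3604). TPP1, a peptidase, went from 0 reads to 124 RPM. CTSB, cathepsin B, had been at 197 RPM in the oocyte library, 39.1 and 46.1 at the next stages, 7.66 in the morula and 62.2 in the blastocyst, so it recovered part of an earlier loss. GM2A, the activator protein for ganglioside breakdown, was among the 10 rows with the most blastocyst reads, at 38.6 RPM in the morula and 3037 in the blastocyst. The fall was SMPD1, the acid sphingomyelinase, from 7.33 RPM to 0 reads. PSAP, CTSB and SMPD1 have spans that overlap another row.

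Subunits of the V-ATPase, the proton pump that acidifies lysosomes and can act at the cell surface, followed, with 10 of 18 higher, none lower and a median of 2.16. ATP6V1G3 had 0 reads in the 3 earliest libraries, 3.33 RPM in the morula and 516 in the blastocyst. ATP6V1F went from 0.999 RPM (3 reads) to 28.7 RPM and ATP6V0B from 4.995 to 84.2 RPM. Both sectors of the pump, the V1 head and the V0 membrane ring, were thus among the rises. ATP6V1F has a span that overlaps another row.

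Most genes of cholesterol synthesis and uptake rose, 16 of 25, none fell, and the median was 2.96. MVD, the mevalonate decarboxylase, went from 0.999 RPM (3 reads) to 129 RPM, and CYP51A1, the lanosterol demethylase, from 10.3 to 449 RPM. Fatty acid genes were mixed, 11 of 33 higher and 7 lower. Without overlapping rows 10 of 18 genes of the cholesterol list and 7 of 23 of the fatty acid list were higher. The desaturases rose, FADS1 from 0.666 to 164 RPM, FADS2 from 0.333 to 32.4 RPM and SCD from 53.95 to 1147 RPM. CPT1A, which carries fatty acids towards mitochondrial oxidation, fell from 421 to 7.51 RPM, the elongase ELOVL7 from 83.9 to 0.268 RPM, and the lipid carrier FABP5 from 72.6 RPM to 0 reads. CYP51A1 has a span that overlaps another row.

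Sugar metabolism had 10 of 27 rows higher and 3 lower, with a median of 1.08. GAPDH, the glycolytic dehydrogenase, was at 4.74 RPM in the oocyte, 5.99 in the morula and 432 in the blastocyst, ALDOA, an aldolase, went from 9.99 to 160.3 RPM, and PGD, of the pentose phosphate pathway, from 1.67 to 49.9 RPM. HK2, a hexokinase, fell from 343 to 78.02 RPM, PFKM, the muscle-type phosphofructokinase, from 17.3 to 1.61 RPM, and the transporter SLC2A12 from 54.6 to 7.24 RPM. LDHB, lactate dehydrogenase B, was among the 10 rows with the most blastocyst reads, at 1265 and 3092 RPM, a change of 1.29. SLC2A1 and SLC2A3 were not analysed here. Without overlapping rows 4 of 14 glycolysis rows and 3 of 11 rows of the tricarboxylic acid cycle were higher. In the tricarboxylic acid cycle 8 of 21 rows rose and none fell, among them ACO1, the cytosolic aconitase, from 6.33 to 127 RPM, SUCLA2, a succinyl-CoA ligase subunit, from 15.99 to 203 RPM, and PC, pyruvate carboxylase, from 4.33 to 75.9 RPM. GAPDH, ALDOA, PFKM, SLC2A12, ACO1 and PC have spans that overlap another row.

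Amino acid genes had 10 of 33 higher and 3 lower. SLC43A2, a carrier of large neutral amino acids, went from 0.666 to 73.998 RPM, SLC3A2, the heavy chain shared by several amino acid carriers, from 0 reads to 42.9 RPM, and ASNS from 3.996 to 139.7 RPM. SLC7A2 and SLC1A1, carriers of basic amino acids and of glutamate, fell from 28.97 and 22.98 RPM to 0.268 RPM and 0 reads. Antioxidant genes had 12 of 30 higher and 2 lower, led by PRDX5, a peroxiredoxin, from 9.66 to 649 RPM, and GPX4, which reduces lipid peroxides, from 3.66 to 144 RPM. Without overlapping rows 6 of 22 amino acid rows and 6 of 21 antioxidant rows were higher. The transferases parted, GSTA1 rising from 1.998 to 54.2 RPM and GSTO1 falling from 7.99 RPM to 0 reads. SLC1A1, PRDX5 and GPX4 have spans that overlap another row.

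Cytosolic ribosomal protein genes moved together, with 28 of 44 higher, none lower and a median of 2.38, and their summed level went from 532 RPM in the oocyte and 6353 in the morula to 25953 in the blastocyst. RPL13 went from 19.6 to 382 RPM, RPS15 from 36.6 to 532 RPM, RPL35 from 62.6 to 789 RPM and RPS12 from 432 to 2322 RPM. These genes have many near-identical copies in mammalian genomes, and the treatment of reads that match more than 1 place is not given in the sources used here, so the split of reads among copies is uncertain. Of the 44 compared rows 40 lay in the quintile of rows with the shortest genomic spans, whose median change was 0.64. Among the 30 ribosomal rows without an overlapping span 16 were higher, and their median was 2.33. Translation factors had 5 of 37 higher and 3 lower, no more than the 13.8% of all rows in each direction. EEF1G and EEF1D, subunits of the elongation factor, rose from 49.95 and 19.6 to 384 and 148 RPM, and EIF3F, of the initiation factor eIF3, from 4.66 to 32.7 RPM. EIF5A2, EIF3J and EIF2S1 fell from 29.97, 477 and 335 RPM to 0.804, 71.3 and 82.3 RPM. RPL35, EEF1D and EIF2S1 have spans that overlap another row.

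The proteasome, the spliceosome and the chaperones had few called members. Of 33 proteasome rows 2 rose and none fell, with a median of 0.20, which was -0.53 over the 17 rows without an overlapping span. The rises were PSME1, an activator subunit, from 22.98 to 124 RPM, and PSMB10, an immunoproteasome subunit, from 1.67 to 11.3 RPM. Splicing factors had a median of -0.27, with none of 46 higher and 1 lower, HNRNPH1, from 1363 to 322 RPM. Of 33 chaperones 3 rose and 1 fell. The rises were CALR and P4HB, which fold proteins in the endoplasmic reticulum, from 83.9 and 10.99 to 509 and 84.7 RPM, and HSP90AB1, a cytosolic chaperone, from 519.5 to 2356 RPM, and the fall was HSPB8, from 7.99 RPM to 0 reads. PSME1, PSMB10, HNRNPH1 and HSP90AB1 have spans that overlap another row.

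Nuclear-encoded subunits of the respiratory chain had 20 of 43 rows higher, none lower and a median of 1.68, and their summed level went from 3193 to 7130.4 RPM. NDUFS8, of complex I, went from 0.666 to 46.9 RPM, NDUFA10 from 2.66 to 86.3 RPM and NDUFA11 from 6.99 to 123 RPM. Without overlapping rows 10 of 22 were higher, with a median of 1.53. None of the 10 symbolled rows of the mitochondrial chromosome was called, with a median of -0.53. COX1, of complex IV, was at 43141 RPM in the morula and 29002 in the blastocyst, and ND3 was the row that went up, from 391.974 to 816 RPM. Carriers of the inner membrane had a median of 0.25, or -0.34 without overlapping rows, with 4 of 27 higher and 3 lower: SLC25A22, a glutamate carrier, went from 0.666 to 30.3 RPM, SLC25A5, an ADP/ATP carrier, from 7.33 to 50.4 RPM, and SLC25A32, linked to folate and flavin transport, from 79.3 to 3.22 RPM. SLC25A22 has a span that overlaps another row.

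The mitochondrial chromosome as a whole took 16.3% of the morula reads and 18.6% of the blastocyst reads, but its rows exchanged shares. The 10 symbolled rows went from 14.2% to 10.1%. The longer rows without a symbol, ENSSSCG00000018061 (mitochondrial chromosome, 1246 to 2205) and ENSSSCG00000018063 (2274 to 3844), went from 6018 to 25735 RPM and from 14114 to 58379 RPM, together from 2.01% to 8.41% of the reads. In the oocyte, 2-4 cell and 8-16 cell libraries these 2 rows had held 0.113%, 0.217% and 0.2204%. Of the 21 short rows without a symbol, up to 500 bases, 18 had a lower level in the blastocyst and 3 a higher one, and 9 were called lower. As RPM is a share of all reads, reads in these 2 rows lower every other value of their library. With both libraries scaled to gene reads outside the mitochondrial chromosome, 1846 rows were higher and 1927 lower.

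**Figure D4:**
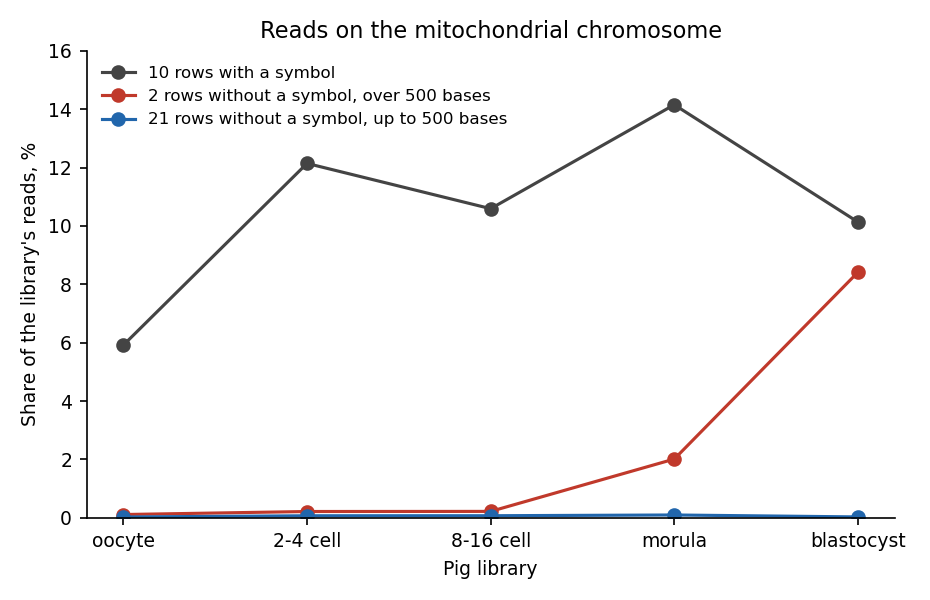
Share of each pig library's reads (y axis, percent) in 3 groups of rows of the mitochondrial chromosome, 1 library per stage (x axis). The 2 longer rows without a symbol rise from 2.01% in the morula to 8.41% in the blastocyst, while the 10 rows with a symbol fall from 14.2% to 10.1%.

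Of 24 mitotic kinases and cyclins 9 fell and 1 rose, with a median of -1.53. CCNB1, cyclin B1, was at 513, 510.1, 335 and 512 RPM in the 4 earlier libraries and at 35.1 RPM in the blastocyst, 14.6-fold lower than the morula. CCNB3 went from 148 to 10.7 RPM, and WEE2, an oocyte kinase that holds meiosis, from 72.6 to 1.07 RPM at the end of a decline from 1976 RPM in the oocyte. The rise was BIRC5, survivin, from 5.33 to 36.7 RPM. None of 31 replication rows rose and 3 fell, a share below that of all rows called lower (13.8%). The falls were CDC7, the kinase that fires replication origins, from 20.6 to 3.49 RPM, GINS4, of the replicative helicase, from 82.9 to 13.1 RPM, and MCM8 from 53.6 to 10.7 RPM. CCNB3 and MCM8 have spans that overlap another row.

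Of the G1 and S phase regulators 2 of 24 rose and 3 fell, shares below the 13.8% of all rows in each direction. CCND3, a D-type cyclin, went from 0.333 RPM (1 read) to 61.9 RPM and CDKN1A, the inhibitor p21, from 6.66 to 44.2 RPM. CCND2 went from 4.33 RPM to 0 reads, RB1, the retinoblastoma protein, from 192 to 36.7 RPM and E2F7, a repressing E2F factor, from 30.3 to 6.703 RPM. CCND3 and CCND2, which are alternative partners of CDK4 and CDK6, thus went opposite ways. Of 22 apoptosis rows 3 rose and 2 fell, also no more than the shares of all rows. BCL2L1, a survival factor, came back from 22.6 to 98.4 RPM after 234 RPM in the oocyte. BAD, its antagonist, fell from 10.99 to 1.88 RPM, and TP63 from 19.3 RPM to 0 reads. CCND3, RB1, BCL2L1 and BAD have spans that overlap another row.

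Counts of chromatin genes stand beside the 13.8% higher and 13.8% lower of all rows. In the Polycomb and histone lists, only the count of Polycomb falls lies above those shares. Of 27 Polycomb rows 7 fell and 2 rose, with a median of -0.89. The rises were PCGF3, from 1.67 to 35.1 RPM, and PCGF2, from 3.33 to 25.2 RPM, and the falls included PCGF6, from 60.3 to 8.04 RPM. PCGF proteins are alternative core subunits of Polycomb complex 1. SCML2, another Polycomb protein, fell from 37.6 to 4.56 RPM. Of 32 histone demethylase and acetylation rows 4 rose and 3 fell, with HDAC5 and SIRT2, both deacetylases, going from 0 reads to 51.5 and 28.7 RPM, and HDAC9 and HDAC8 falling from 105 and 113 to 12.3 and 22.8 RPM. KDM4B went from 0 reads to 7.51 RPM, and KDM7A fell from 127 to 29.5 RPM. PCGF2 and HDAC5 have spans that overlap another row.

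The DNA methylation list had 4 of 22 rows higher and 3 lower, against 13.8% of all rows in each direction. Its median was 0.28. DNMT1, the maintenance methyltransferase, fell from 362 RPM in the morula (341 to 385) to 30.03 in the blastocyst (24.96 to 36.1), 12.1-fold. DNMT3A and DNMT3B, the de novo enzymes, were not called, with changes of 0.98 and 0.31. TET2, which oxidises methylcytosine, rose from 92.9 to 488 RPM, and TET1 went from 109.9 to 420.4 RPM, a change of 1.93 just under the threshold. GADD45A and GADD45B, linked to DNA repair and demethylation, rose from 6.33 and 0.333 to 59.5 and 14.7 RPM, and ZFP57, which protects imprints, from 6.33 to 39.9 RPM. SMUG1, a uracil glycosylase, fell from 5.99 RPM to 0 reads.

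Imprinted genes are those read mainly from the mother's or the father's allele. Of 26 compared rows 3 rose and 5 fell, against 13.8% higher and 13.8% lower of all rows. IGF2R, the receptor that clears IGF2, went from 63.6 to 309 RPM, GRB10, an inhibitor of growth factor receptors, from 4.66 to 23.9 RPM and CD81, a tetraspanin, from 4.33 to 114 RPM. PLAGL1, a growth-suppressing factor, fell from 36.6 to 0.536 RPM and DIRAS3, a RAS relative, from 74.9 to 9.92 RPM. DIRAS3 had been under 3 RPM in the 3 earliest libraries, and was highest in the morula. IGF2, H19 and XIST were not analysed here. PLAGL1 has a span that overlaps another row.

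The signalling lists had members called in both directions, in shares to be read against the 13.8% higher and 13.8% lower of all rows. The Hippo, FGF, TGF-beta and JAK-STAT counts lie near or below those shares, and the WNT count of falls lies above. In the Hippo list 2 of 27 rose and 3 fell, and YAP1, its effector, was at 92.2 and 129 RPM. VGLL4 and VGLL1, cofactors of TEAD proteins, rose from 17.3 RPM and 0 reads to 145 and 4.56 RPM. CTGF, AMOTL1, an angiomotin, and SAV1, a scaffold of the kinase cascade, fell from 90.6, 17.3 and 53.3 RPM to 0 reads, 3.49 and 5.898 RPM. VGLL4 and SAV1 have spans that overlap another row.

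In the FGF and ERK list 6 of 39 rose and 7 fell. The receptors EGFR and INSR rose from 19.6 and 0.333 to 145 and 10.7 RPM, and the ligand VEGFA from 1.67 to 22.5 RPM, whereas FGFR2 was at 46.6 and 69.98 RPM and was not called. The feedback inhibitors SPRY4 and SPRY1 fell from 102 and 22.6 RPM to 0 reads, as did FGF13, from 49.6 RPM. WNT signalling had 8 of 33 lower and 3 higher. PORCN, the enzyme that lipidates WNT ligands, went from 41.6 to 0.268 RPM, and the R-spondins RSPO2 and RSPO3 went from 24.3 and 16.98 RPM to 0 reads. DKK3, a secreted Dickkopf relative, rose from 2.997 to 49.9 RPM, DVL3, a Dishevelled, from 8.33 to 108 RPM and RNF43, which removes WNT receptors, from 3.33 to 18.8 RPM. SPRY4 and RSPO2 have spans that overlap another row.

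In the TGF-beta, BMP and NODAL list 5 of 31 rose and 3 fell. TDGF1, FST, which binds activins, and SMAD6, an inhibitory SMAD, rose, FST from 0 reads to 11.5 RPM and SMAD6 from 0.666 to 11.3 RPM. The ligands BMP15, GDF11 and GDF3 fell from 79.6, 9.99 and 8.99 RPM to 5.09 RPM, 0.268 RPM and 0 reads. JAK-STAT genes had 4 of 28 higher and 5 lower: the cytokines IL6 and LIF reached 55.2 and 9.65 RPM from 2.997 RPM and 0 reads, and the receptor IL6R went from 2.33 to 33.2 RPM. IL1R1 and IFNAR1, receptors for interleukin 1 and type I interferon, fell from 10.7 and 21.3 RPM to 0 reads and 0.804 RPM, and SOCS4, a feedback inhibitor, from 125 to 15.6 RPM. A ligand and its receptor, IL6 and IL6R, were thus both among the rises. GDF11 has a span that overlaps another row.

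Of 19 compared oocyte markers none rose and 9 fell, and their summed level went from 12457 RPM in the oocyte library and 400.3 in the morula to 71.3 in the blastocyst. NLRP9, an oocyte NLR protein, went from 739 RPM in the oocyte and 29.6 in the morula to 0 reads, and KIT, a receptor tyrosine kinase, from 19.3 RPM in the morula to 0.268. Genes of mRNA deadenylation and decay had 3 of 44 lower and 1 higher, with a median of -0.81. YTHDF2, which marks methylated mRNA for decay, fell from 138 to 23.1 RPM, ZCCHC6, a terminal uridyltransferase, from 133 to 16.1 RPM and CNOT8, a deadenylase, from 117 to 16.9 RPM, and BTG2, which recruits the deadenylase, rose from 1.67 to 20.4 RPM. Of 16 genome activation regulators none rose and 3 fell, CHD1 from 1094 to 266 RPM, YY1 from 168 to 32.98 RPM and KLF17 as given above. Zinc finger genes by symbol had 20 of 242 higher and 54 lower, with a median of -0.76. CNOT8 has a span that overlaps another row.

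Some rows with many reads stayed level. CALM3, a calmodulin, was at 1131 and 1036 RPM, SERBP1, an RNA-binding protein, at 734 and 645 RPM, TUBA1B, an alpha tubulin, at 1295 and 1518 RPM, ZNF638 at 878 and 964 RPM and ERC2 at 700.02 and 765 RPM. Those were the 5 non-mitochondrial rows with the highest mean level among rows that changed by less than 0.25. ANKRD44 and TPT1, a growth-related protein of nearly all cells, were among the rows with the most reads in both libraries, at 4607 and 2807 RPM in the morula and 3849 and 3724 RPM in the blastocyst. SLC31A1, a copper transporter, and KIAA1551 were also among the 5 with the most morula reads, at 3874 and 2564 RPM, and were at 1699 and 970.3 RPM in the blastocyst. At the threshold itself, TFEB, a regulator of lysosomal genes, lay just inside with 2.33 and 12.3 RPM, and PARP9 just outside with 1.998 and 10.99 RPM. POFUT1 lay just inside on the lower side with 22.3 and 4.83 RPM, and CSTF3 just outside with 295.7 and 73.2 RPM. TUBA1B, ERC2, ANKRD44 and SLC31A1 have spans that overlap another row.

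Rows with short genomic spans were more often higher, and rows with long spans more often lower. The rows were divided by span into 5 quintiles. In the shortest quintile of the 12567 rows (median span 6196 bases) 22.7% were higher and 10.4% lower, with a median change of 0.64. In the longest quintile (median span 183014 bases) 20.2% were lower and 8.63% higher, and the median was -0.55, and the quintiles between lay in order. The medians of the cow step from morula to blastocyst had the same order, from 0.33 in its shortest quintile to -0.54 in its longest. The cow share lower was 8.73% in the shortest quintile, 8.26% in the next and 17.3% in the longest. The medians of the preceding pig step, which shares the morula library, went from 0.48 to -0.21 between the same ends, and those between the oocyte and 2-4 cell libraries the opposite way, from -0.44 to 0.14. Transcript length, GC content and RNA integrity were not measured, and their part in this order was not tested.

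**Figure D5:**
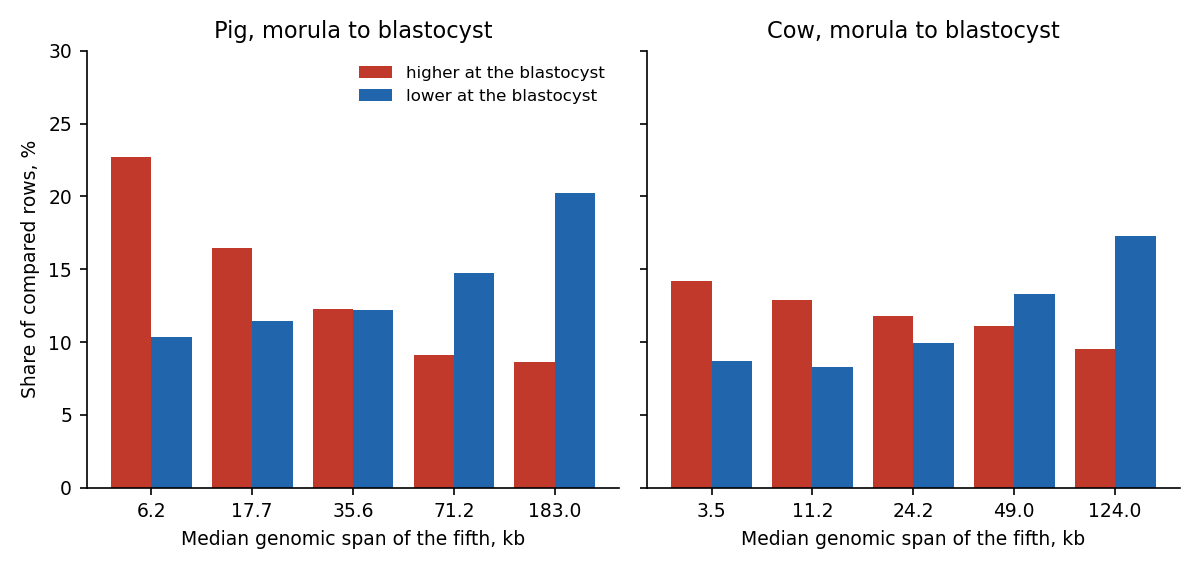
Share of compared rows called higher (red) and lower (blue) at the blastocyst, in quintiles of the rows by genomic span, with the median span of each quintile in kilobases on the x axis, for pig (left) and cow (right). In pig the red bars go from 22.7% to 8.63% and the blue bars from 10.4% to 20.2% between the shortest and the longest quintile.

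The shares also differed between chromosomes, whose median spans are given beside them. Chromosome 2 had 20.2% of its 1116 rows higher and 10.04% lower (median change 0.48, median span 24013 bases), and chromosome 12 had 17.2% higher and 8.36% lower (median span 24742 bases). On chromosome 16, 8.14% of 258 rows were higher and 20.5% lower, with a median change of -0.84 and a median span of 49631 bases. The X chromosome had 10.9% of 432 rows higher and 21.8% lower, with a median of -0.65, although its median span of 33489 bases was shorter than that of chromosome 16. Of 22 rows on the Y chromosome 6 were higher and 2 lower. Since the sex of the embryos is not given in the sources used here, the part of unequal sex ratios in the X and Y values was not tested.

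The cow libraries of the same stages, which share no sample with the pig ones, gave an independent set of values for genes with the same symbol. They were unequal in depth, with 3899291 reads in the cow morula and 14182046 in the cow blastocyst. There 3 reads came to 0.769 and 0.212 RPM. The mitochondrial chromosome took 9.15% of the cow morula reads and 30.2% of the cow blastocyst reads. In cow 1506 of 12653 compared rows were higher (11.9%) and 1457 lower (11.5%). Of 8482 symbols compared in both species, 1153 were called higher in pig, and 355 of these (30.8%) were also called higher in cow, against 11.4% of all paired symbols, while 44 were called lower there. Of 1089 called lower in pig, 286 (26.3%) were also called lower in cow, against 11.01% of all paired symbols, and 65 were called higher. Seen from the cow lists, the shared rows were 36.9% of the cow rises and 30.6% of the cow falls. Pig falls made up 6.75% of the cow rises, and pig rises 4.71% of the cow falls. These shares stand beside 1153 pig rises and 1089 pig falls among all 8482 paired symbols. No test was made of these counts, since genes are not independent replicates and each species had 1 library per stage.

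By list, the cow values stood beside the pig values as follows. In the keratin and desmosome list 7 of 12 cow rows rose and 1 fell, and the cow median was 2.28 (pig 2.85). KRT8 went from 0.513 to 1490.3 RPM and KRT18 from 0.769 to 1021 RPM in cow. The lysosome had 17 of 32 higher in cow with a median of 2.14 (pig 3.02), the respiratory chain 9 of 43 with 1.22 (pig 1.68) and the ribosome 6 of 43 with 1.02 (pig 2.38). Larger gaps between species were seen in cholesterol synthesis, 5 of 23 higher with a median of 1.07 in cow and 2.96 in pig, and among epiblast factors, whose median was 0.93 in cow over 14 symbols and -1.39 in pig over 18. Of those 14 cow symbols 3 rose and 3 fell. The cow falls were NANOG, from 76.4 to 14.5 RPM, NR5A2, from 54.6 to 1.62 RPM, and ETV5, from 14.1 to 1.13 RPM, and SOX2 was at 14.9 and 27.3 RPM and was not called. GATA2 and GATA3 rose in both species, to 76.9 and 78.8 RPM in cow. Whether these species differences exceed the spread between embryos was not tested.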

How the data were processed

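Total RNA of pig and cow oocytes and embryos was sequenced, with 1 library for each of 5 stages per species. The submitters' processing notes name Trim Galore 0.6.4, HISAT2 2.1.0 and the builds Sscrofa11.1 and UMD3.1, with no roles. The counting tool, annotation, strand setting, and the treatment of duplicates and of reads with several matches are not given in the sources used here. The deposited values are log2 RPM per gene as the authors' table gives them, and coordinates are printed as in that table. From these values, the lowest in each column equals 0.9 of a read and stands for 0 reads, and all or nearly all values (99.9923% in the pig morula, 100% in the pig blastocyst) are whole multiples of 1 read within 0.05 of a read, which gave the read totals (3002751 for the pig morula and 3729816 for the blastocyst).

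Rows with 1 RPM or more in either library were compared as log2(RPM + 1) on the deposited values, and called at a change of 2 in size. Levels of 0 reads are printed as 0, and folds against 0 reads use a floor of 3 reads. There are no p-values, since each group has 1 library. Intervals are 95% Wilson intervals for levels and exact binomial ones for ratios.

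Genes were named by a rule: the 15 largest rises and falls, the 10 highest blastocyst and 5 highest morula levels, up to 3 rises and 3 falls in each of 46 lists, a fixed set of lineage, junction, methylation and imprinted genes, the 5 highest rows with no read in the other library, and the 5 highest with a change under 0.25. HNF4A, NID2, CUBN, ND3, ODF2, the mitochondrial rows without a symbol, the markers at 0 reads, and the rows just inside and outside the threshold were named after their values were seen. Some named genes are not reported here. The members and lists were chosen with earlier results of these data known. Alternatives covered the pseudocount, the minimum, the scaling, the depth, the threshold and overlapping rows. Promoter sequences of the pig were not used here. Calculations used Python 3.11.15, numpy 2.4.6, pandas 2.3.3 and scipy 1.17.1, and the calling script was tested on simulated data.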

Additional observations from a re-analysis of the deposited data

Results flagged for a closer look

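For 14 of the named genes the pig and cow steps from morula to blastocyst were both past the threshold in size and opposite in sign. Each species had 1 library per stage, so the difference between the species was not tested, and the values are given as they stand.

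Rises in pig beside falls in cow were seen in 6 genes. The change of AMT, of the glycine cleavage system, was 7.03 in pig and -2.24 in cow. AQP3, the water and glycerol channel, had 5.804 and -2.34, DKK3, a secreted Dickkopf relative, 3.67 and -2.19, and SLC25A14, a mitochondrial carrier, 3.06 and -3.06. SUCLA2, the succinyl-CoA ligase subunit, had 3.59 and -2.64, and ZFP57, which protects imprints, 2.48 and -2.63. In cow AQP3 went from 765 to 151 RPM and ZFP57 from 11.3 to 0.987 RPM.

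Falls in pig beside rises in cow were seen in 8 genes. CLDN1, the claudin, had -7.74 in pig and 2.01 in cow, where it went from 0.769 to 6.13 RPM. PORCN, which lipidates WNT ligands, had -5.07 and 2.29, KIT, the receptor tyrosine kinase, -4.002 and 4.68, and PFKM, a phosphofructokinase, -2.81 and 2.102. SMPD1, the acid sphingomyelinase, had -2.75 and 2.66, NID1, a nidogen, -2.49 and 2.46, SMUG1, a uracil glycosylase, -2.49 and 3.03, and CCND2, a D-type cyclin, -2.102 and 3.27. KIT in cow went from 10.3 to 288 RPM. CLDN1 and SMUG1 were at 0.769 RPM in the cow morula, which is the level of 3 reads, and CCND2 was at 0 there.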

How the results depend on the processing

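No replicate could be left out and no paired analysis was possible because each stage had 1 library and the labels give no shared replicate numbers. Promoter motifs were planned and not run, since pig sequences were not used here. The counts of called rows depended most on the pseudocount and the threshold. With a pseudocount of 5 RPM there were 939 rows higher and 778 lower, with a threshold of 1 there were 3542 and 3976, and with a threshold of 3 there were 786 and 668. Restricting to rows with no overlapping span, an alternative chosen after seeing the data, gave 1081 rows higher and a median change of -0.24, with fewer rows compared. The share of called rows that were higher (50.1%) was 48.4% with a pseudocount of 0.5, 54.7% with a pseudocount of 5, 53.8% with median scaling, 47.1% and 54.1% with thresholds of 1 and 3, and 46.4% without overlapping rows. The median change (-0.11) was -0.052 with a minimum of 5 RPM and -0.0142 with median scaling. The median of the male germ cell list, -2.94, turned to 1.83 without overlapping rows, where ODF2 alone was left. Of 46 list medians 12 changed sign under at least 1 alternative, 9 of them with no minimum, where undetected members enter: the hypoblast, pump, secretory, SLC25 carrier, apoptosis, imprinted, JAK-STAT, integrin and blood lists. The heat shock and proteasome lists were the others beside the male germ cell one. Of 218 called genes among the 245 named, 0 changed sign, and 50 fell under a size of 2 with a pseudocount of 5. Counting 0 reads as 0 RPM was also chosen after seeing the data and kept both counts of called rows within 1.5 times. At these depths a row with 0 reads may have had up to 0.999 RPM in the morula and 0.804 RPM in the blastocyst.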
